A study of Arabidopsis thaliana with 2 samples.

Results

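The 8 genes described here carry nitrate into and through Arabidopsis and reduce it to ammonium: the nitrate reductase genes NIA1 (AT1G77760) and NIA2 (AT1G37130), the nitrite reductase gene NIR1 (AT2G15620), and the nitrate transporter genes NRT1.1 (AT1G12110), NRT2.1 (AT1G08090), NRT2.2 (AT1G08100), NRT2.3 (AT5G60780) and NRT2.4 (AT5G60770). They were chosen by name, not by a measured value, and are 8 of the 27444 protein-coding genes on chromosomes 1 to 5. Each gene was examined in a window that ran 3 kb upstream of its transcription start site (TSS), through the transcribed region, to 1 kb past its transcription termination site (TTS). Open chromatin was mapped with MH-seq, in which cross-linked nuclei are digested lightly with micrococcal nuclease (MNase). The small fragments released from open regions, which the paper describes as associated with regulatory proteins, are sequenced. Stretches where these fragments pile up above background were called as MNase hypersensitive sites, abbreviated MHSs. The material was seedlings of ecotype Columbia (Col-0), 2 weeks old and fixed with formaldehyde, with no mutant or treatment, and the data were 2 libraries of this single group, called replicate 1 and replicate 2. The lists held 70046 MHSs in replicate 1 and 49934 in replicate 2, of which 56 and 44 lay in the windows of the 8 genes.

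Nitrate is the main nitrogen source of many plants and also a signal that changes the transcription of the genes handling it. Membrane transporters of the NRT1 and NRT2 families take it up. Nitrate reductase reduces it to nitrite in the cytosol, nitrite reductase reduces nitrite to ammonium in plastids, and glutamine synthetase and glutamate synthase build the ammonium into amino acids. The seedlings were grown on reduced-strength MS medium, which supplies both nitrate and ammonium. The labels name no separated tissue, so with seedlings extracted as a whole an MHS open in few cells and one partly open in many cannot be told apart.

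The 8 genes differed in what lay at the TSS. In NIA1, NIA2, NIR1, NRT1.1 and NRT2.3 the TSS itself lay inside an MHS in both replicates. In NRT2.1 and NRT2.2 no MHS of either replicate came within 500 bp of the TSS, and the nearest one ended about 1 kb upstream. NRT2.4 had its nearest MHS 1073 bp from the TSS in replicate 1 and 204 bp away in replicate 2. The map of MHSs shows this arrangement in each list.

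**Figure D1:**
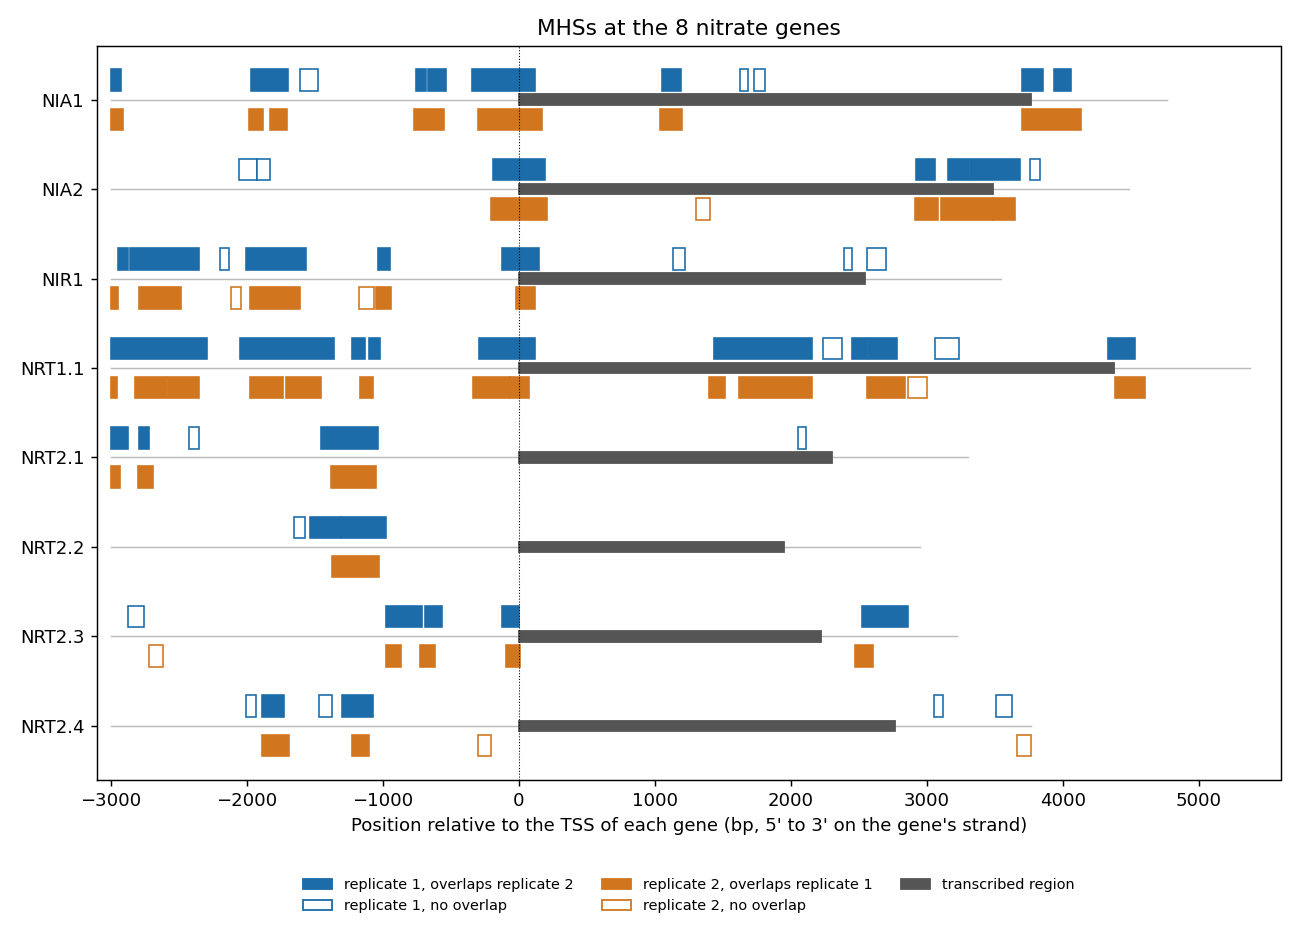
Every MHS in the windows of the 8 genes, drawn to scale by position relative to the TSS (bp, horizontal axis), with MHSs cut off at the window edges. Blue boxes above each gene are MHSs of replicate 1 and orange boxes below it MHSs of replicate 2, filled where they overlap the other replicate by at least 1 bp. Boxes cross the TSS in both replicates at 5 genes and stop about 1 kb short of it at NRT2.1 and NRT2.2.

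NIA1 encodes 1 of the 2 nitrate reductases of Arabidopsis and lies on the minus strand of chromosome 1, chr1:29235721-29239484 in TAIR10, with 4 exons. Its window held 11 MHSs in replicate 1 and 7 in replicate 2, which covered 22.0% and 20.7% of its bases. The longest MHS of the window spanned the TSS in both libraries. It measured 467 bp in replicate 1, chr1:29239362-29239828, and 469 bp in replicate 2, chr1:29239317-29239785, and 424 bp were common to both. In replicate 1 it ran from -344 to 122 and in replicate 2 from -301 to 167, counted from the TSS along the gene. The bases of the shared segment just upstream of the TSS are printed because they are the promoter DNA that both libraries left open, chr1:29239485-29239784 on the minus strand, from -300 to -1, from the RefSeq sequence of TAIR10.1. Capitals mark the single W-box core in it, the motif TTGAC of WRKY transcription factors, read as GTCAA on the strand of the gene, a core that 50.4% of all protein-coding genes held in a segment of the same length and offset.
NIA1 promoter segment: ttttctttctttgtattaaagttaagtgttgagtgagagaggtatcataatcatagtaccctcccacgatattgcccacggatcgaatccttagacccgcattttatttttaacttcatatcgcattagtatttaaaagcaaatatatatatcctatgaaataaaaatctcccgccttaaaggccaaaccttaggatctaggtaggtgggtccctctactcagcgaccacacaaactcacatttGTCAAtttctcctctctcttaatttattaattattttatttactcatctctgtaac

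Further sites of NIA1 lay inside and behind the gene. An MHS in the coding part of exon 1 measured 140 bp in replicate 1 and 165 bp in replicate 2, and the shorter lay wholly within the longer. In replicate 1 only, an 80-bp MHS lay in intron 3 and a 59-bp MHS in the coding part of exon 3, the shortest of all in the 8 windows. The TTS lay inside an MHS of 155 bp in replicate 1 and of 439 bp in replicate 2, and a further 124-bp MHS of replicate 1 fell within that of replicate 2. Upstream of the promoter site, replicate 1 had MHSs of 136 and 68 bp between -753 and -533 where replicate 2 had a single MHS of 223 bp. Farther out, a 278-bp MHS of replicate 1 between -1971 and -1694 overlapped MHSs of 121 and 102 bp in replicate 2, and an 80-bp MHS at the window edge overlapped one of 133 bp. The remaining 128-bp MHS, from -1606 to -1479, was called in replicate 1 only and lay 100 bp from the nearest MHS of replicate 2.

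NIA2 encodes the other nitrate reductase, which provides most of the enzyme activity in Arabidopsis seedlings. It lies at chr1:14158452-14161938 on the plus strand, with 3 exons. The window held 7 MHSs in replicate 1 and 5 in replicate 2, covering 17.9% and 16.4% of its bases. The longest MHS again spanned the TSS, from -188 to 194 in replicate 1 (383 bp, chr1:14158264-14158646) and from -203 to 207 in replicate 2 (411 bp, chr1:14158249-14158659). The replicate 1 site lay entirely within that of replicate 2. This was the single upstream site that both libraries placed within the 3 kb before NIA2. Its upstream bases, chr1:14158264-14158451 on the plus strand, from -188 to -1, are printed for comparison with NIA1, with 2 reversed W-box cores (GTCAA) and a reversed TATA box (TTTATA) in capitals. The TTTATA lies from -175 to -170. In segments of the same length and offset, 36.9% of all protein-coding genes held a W-box core and 39.4% a TATA box, counted on both strands.
NIA2 promoter segment: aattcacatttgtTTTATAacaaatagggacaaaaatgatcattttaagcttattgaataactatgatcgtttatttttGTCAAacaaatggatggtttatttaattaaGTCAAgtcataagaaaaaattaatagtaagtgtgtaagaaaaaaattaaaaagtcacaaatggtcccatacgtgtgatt

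The coding sequences of NIA1 and NIA2 were equally long, 2754 bp, and 72.4% of their aligned bases were identical. The other NIA2 sites called in both replicates clustered at the end of the gene. In the coding part of exon 3, a 136-bp MHS of replicate 1 lay within a 174-bp MHS of replicate 2. From there to behind the TTS, replicate 1 had MHSs of 159 and 364 bp, the second of which spanned the TTS, and replicate 2 had MHSs of 378 and 161 bp. Sites called in 1 library were 2 MHSs of 131 and 95 bp between -2055 and -1827 and a 69-bp MHS behind the gene in replicate 1, and a 105-bp MHS in intron 1 in replicate 2. The upstream pair was 1721 and 1623 bp away from any MHS of replicate 2.

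NIR1 encodes the ferredoxin-dependent nitrite reductase of plastids. It lies at chr2:6810395-6812941 on the plus strand, with 4 exons, and its window held 9 MHSs in replicate 1 and 7 in replicate 2. They covered 26.7% and 17.8% of the window. The MHS at the TSS measured 270 bp in replicate 1, from -120 to 149 (chr2:6810275-6810544), and 141 bp in replicate 2, from -20 to 120 (chr2:6810375-6810515), contained in the first. The upstream part common to both was short, chr2:6810375-6810394 on the plus strand, from -20 to -1, and held none of the motifs searched. Downstream of the TSS the same site covered the only strict match to the nitrate-responsive element (NRE) that lay in an MHS of the 8 windows. The NRE is a sequence known from nitrite reductase promoters of several plants, through which NIN-like proteins activate transcription, and the match is shown for that reason. It lies at chr2:6810458-6810478 on the plus strand, from 63 to 83 counted from the annotated TSS, in the annotated 5′ UTR. Capitals mark the part matching the looser form of the element.
NIR1 segment upstream of the TSS: aataaatttagaaagaataa
NIR1 NRE match: tgaccCTTTACATTGCTCAAG

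The strict form searched was TGNCNNTT followed by a spacer of 10 bases and AAG, and the loose form was CTT, the same spacer and AAG, each on both strands. Both forms matched at this site of NIR1. The strict form occurred 4 times in the 8 windows. The matches of NIA1, from -2498 to -2478, of NRT1.1, from 315 to 335 in an intron, and of NRT2.2, from -2357 to -2337, lay in no MHS of either replicate. In segments of the length and offset of the 141-bp MHS of replicate 2 at the NIR1 TSS, 0.521% of all protein-coding genes held the strict form. The loose form was held by 5.21%. The site was picked for its match in a search of all 8 windows, so these shares do not tell how rare such a find is.

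The longest MHSs of NIR1 lay far upstream. One of 508 bp in replicate 1, from -2857 to -2350, contained a 307-bp MHS of replicate 2, and one of 445 bp, from -2006 to -1562, contained a 364-bp MHS of replicate 2. The second of these held both G-box cores, CACGTG, that occurred in the 3 kb upstream of NIR1. A G-box is a site bound by bZIP and bHLH transcription factors. The 300 bases around them are printed because they hold these G-boxes, in capitals at -1858 and -1780. These bases are chr2:6808429-6808728 on the plus strand, from -1966 to -1667. They lie within the longest segment of this window that both libraries called. A window of this length at this offset held a G-box in 3.52% of all protein-coding genes. The segment was picked for its G-boxes among the shared segments, so this share does not tell how rare such a find is.
NIR1 distal segment: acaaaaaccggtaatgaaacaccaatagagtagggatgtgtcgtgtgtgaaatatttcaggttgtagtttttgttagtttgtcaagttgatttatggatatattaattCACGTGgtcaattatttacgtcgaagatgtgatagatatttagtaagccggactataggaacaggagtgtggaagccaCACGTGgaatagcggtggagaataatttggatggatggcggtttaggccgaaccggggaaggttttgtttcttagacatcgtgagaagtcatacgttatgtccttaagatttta

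A shorter site of NIR1, 91 bp in replicate 1 from -1036 to -946 and 108 bp in replicate 2, held the only evening element of the 8 windows that lay in an MHS. The evening element, AAAATATCT, is a motif of genes under the circadian clock, and in the segment chr2:6809359-6809449, on the plus strand, it is read in reverse as AGATATTTT, in capitals. Of all protein-coding genes, 0.466% held the element in a segment of the same length and offset. The segment was picked because it held the element, so this share does not tell how rare such a find is.
NIR1 segment near 1 kb upstream: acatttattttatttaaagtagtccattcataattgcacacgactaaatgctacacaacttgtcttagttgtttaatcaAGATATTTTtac

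The other 3 evening elements of the 8 windows, 1 upstream of NIA2 and 2 upstream of NRT2.1, lay outside MHSs. At the far end of the NIR1 window, a 79-bp MHS of replicate 1 shared 6 bp with a 132-bp MHS of replicate 2 that crossed the window edge. Replicate 1 also had an 89-bp MHS in the coding part of exon 3, a 60-bp MHS in the 3′ UTR and a 140-bp MHS that began 12 bp past the TTS, none of which replicate 2 had within 1 kb. A 68-bp MHS of replicate 1 and a 79-bp MHS of replicate 2 between the distal sites missed each other by 13 bp, and a 108-bp MHS of replicate 2 from -1171 to -1064 was 27 bp from the nearest of replicate 1.

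NRT1.1 encodes a transporter of the NRT1 (NPF) family that works with both low and high affinity and also acts as a nitrate sensor. It lies at chr1:4105223-4109601 on the plus strand, with 5 exons. Its window was the most open of the 8, with 11 MHSs in replicate 1 and 13 in replicate 2 that covered 42.4% and 33.5% of it. The share covered in both, 28.9%, was higher than that of 98.1% of all protein-coding genes. At the TSS, replicate 1 had a 412-bp MHS from -294 to 117 (chr1:4104929-4105340), whereas replicate 2 had MHSs of 266 bp (chr1:4104890-4105155) and 141 bp (chr1:4105159-4105299) that adjoined each other over the same stretch. The 64 bases of the second one upstream of the TSS, chr1:4105159-4105222 on the plus strand, are shown because they carry a TATA box, TATAAA, from -20 to -15, in capitals. Of all protein-coding genes, 19.0% held TATAAA on either strand in a segment of the same length and offset.
NRT1.1 promoter segment: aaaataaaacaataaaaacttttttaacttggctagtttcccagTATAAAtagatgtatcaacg

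The longest MHS of all 8 windows, 899 bp in replicate 1, lay upstream of NRT1.1 from -3190 to -2292 and overlapped 3 MHSs of replicate 2, of 182, 237 and 222 bp. A 690-bp MHS of replicate 1 from -2048 to -1359 overlapped 2 of replicate 2, of 238 and 257 bp. The 238-bp one lay wholly within it and held both G-boxes of the NRT1.1 upstream region, from -1891 to -1886 and from -1871 to -1866. It is printed beside that of NIR1, with its G-boxes in capitals, as chr1:4103251-4103488 on the plus strand, from -1972 to -1735. A G-box was present in a segment of this length and offset in 2.8% of all protein-coding genes. This segment too was picked for its G-boxes, which limits the share in the same way.
NRT1.1 distal segment: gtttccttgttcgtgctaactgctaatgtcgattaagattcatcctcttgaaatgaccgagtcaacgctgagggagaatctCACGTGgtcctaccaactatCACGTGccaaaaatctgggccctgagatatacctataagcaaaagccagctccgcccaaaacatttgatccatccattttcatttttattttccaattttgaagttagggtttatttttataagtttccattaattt

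In NIR1 and NRT1.1, then, a pair of G-boxes lay between -1891 and -1775 in an MHS of both replicates. NIA1 and NIA2 had 2 and 1 G-boxes in the 3 kb upstream, outside MHSs. The single G-box upstream of NRT2.2 lay in an MHS of replicate 1 but not of replicate 2, and NRT2.1, NRT2.3 and NRT2.4 had none in their windows.

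NRT1.1 was also the gene with most open sequence inside its transcribed region. Intron 4 held an MHS of 721 bp in replicate 1, from 1433 to 2153, which overlapped MHSs of 116 and 537 bp in replicate 2, the first with its midpoint in the coding part of exon 4. Farther into intron 4, replicate 1 had MHSs of 111 and 211 bp and replicate 2 one of 280 bp, and the stretch they shared held another G-box covered by both replicates, from 2743 to 2748. MHSs of 137 and 179 bp in replicate 1 and of 140 bp in replicate 2 were intronic sites of a single library. The TTS of NRT1.1 lay in a 202-bp MHS of replicate 1, and the 226-bp MHS of replicate 2 that overlapped it began 2 bp past the TTS. Between the distal sites and the promoter, MHSs of 99 and 83 bp in replicate 1 both overlapped a 97-bp MHS of replicate 2.

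NRT2.1 encodes the main high-affinity nitrate transporter of roots, which needs the partner protein NAR2.1 to work. It lies at chr1:2524023-2526322 on the plus strand, with 3 exons, tail to tail with NRT2.2 and separated from it by 847 bp. Its window held 5 MHSs in replicate 1 and 3 in replicate 2, covering 11.9% and 8.11% of it. The MHS nearest to the TSS measured 421 bp in replicate 1, from -1452 to -1032 (chr1:2522571-2522991), and 332 bp in replicate 2, from -1380 to -1049 (chr1:2522643-2522974), the second within the first. No MHS of either library lay between this site and the TSS. The longest of the window crossed its far edge, 485 bp in replicate 1, from -3360 to -2876, and 458 bp in replicate 2. Between them lay a 71-bp MHS of replicate 1 within a 108-bp MHS of replicate 2, and a 69-bp MHS of replicate 1 that was 266 bp from any in replicate 2. In the transcribed region a single MHS, 61 bp in the 3′ UTR, was called in replicate 1, and the nearest of replicate 2 was 3098 bp away.

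NRT2.2 encodes a close relative of NRT2.1 with a smaller part in high-affinity uptake. It lies at chr1:2527170-2529120 on the minus strand, with 3 exons. Its window held 3 MHSs in replicate 1 and 1 in replicate 2, covering 10.6% and 5.75% of it, and none lay in its transcribed region or behind it in either library. The replicate 2 MHS, 342 bp from -1369 to -1028 (chr1:2530148-2530489), was also the longest of the window. It overlapped MHSs of 328 bp, from -1303 to -976 (chr1:2530096-2530423), and of 225 bp in replicate 1. The third MHS of replicate 1, 79 bp from -1652 to -1574, had none of replicate 2 within 200 bp.

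The nearest sites of NRT2.1 and NRT2.2 thus lay at almost the same distance from their TSSs, so the segments called in both libraries are printed together. That of NRT2.1 is chr1:2522659-2522958 on the plus strand, from -1364 to -1065, and that of NRT2.2 is chr1:2530148-2530423 on the minus strand, from -1303 to -1028, each 5′ to 3′ along its gene. Capitals mark W-box cores (TTGAC) and as-1 cores, TGACG, which read CGTCA in both segments. Where TTGACG occurs these motifs overlap, and the W-box and the as-1 core of NRT2.1 near -1220 are separated by a single base.
NRT2.1 distal segment: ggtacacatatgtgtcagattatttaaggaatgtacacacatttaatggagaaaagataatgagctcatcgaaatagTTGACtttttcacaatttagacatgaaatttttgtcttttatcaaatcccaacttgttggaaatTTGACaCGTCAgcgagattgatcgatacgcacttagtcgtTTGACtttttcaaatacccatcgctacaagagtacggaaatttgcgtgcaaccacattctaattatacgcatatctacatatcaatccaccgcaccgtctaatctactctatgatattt
NRT2.2 distal segment: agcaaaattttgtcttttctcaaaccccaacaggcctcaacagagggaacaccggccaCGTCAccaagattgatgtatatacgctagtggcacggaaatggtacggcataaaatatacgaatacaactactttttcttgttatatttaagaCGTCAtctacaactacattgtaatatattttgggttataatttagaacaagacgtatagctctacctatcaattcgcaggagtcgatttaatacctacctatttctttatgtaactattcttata

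The NRT2.1 segment held 3 W-box cores and 1 as-1 core, and the NRT2.2 segment held 2 as-1 cores and no W-box core. A W-box core of NRT2.2 from -1323 to -1319, just upstream of the printed segment, lay in MHSs of both replicates. Further W-box cores upstream of it lay in MHSs of replicate 1 only. In a segment matched to that of NRT2.1 in length and offset, 47.1% of all protein-coding genes held a W-box core and 21.6% an as-1 core. In one matched to NRT2.2 the shares were 44.4% and 20.2%. The best local alignment of the shared sites of both genes covered 28 bases, of which 25 were identical, from -1262 to -1235 in NRT2.1 and from -1300 to -1273 in NRT2.2. It is shown with identical bases in capitals and the 3 that differed in lower case. The best alignments among the other NRT2 pairs covered 9 to 30 columns with 9 to 23 identical bases.
NRT2.1 aligned stretch: AAAtTTTTGTCTTTTaTCAAAtCCCAAC
NRT2.2 aligned stretch: AAAaTTTTGTCTTTTcTCAAAcCCCAAC

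NRT2.3 and NRT2.4 lie one behind the other on the plus strand of chromosome 5, with 3617 bp between them. NRT2.3, a family member at chr5:24450745-24452964 with 3 exons, had 5 MHSs in each replicate, covering 15.6% and 9.02% of its window. It was the NRT2 gene of the set with an MHS over the TSS, 130 bp from -126 to 3 in replicate 1 (chr5:24450619-24450748) and 102 bp from -90 to 11 in replicate 2 (chr5:24450655-24450756). These were the shortest of the sites that crossed a TSS, and 94 bp were common to both. Their upstream bases, chr5:24450655-24450744 on the plus strand, from -90 to -1, are printed because they carry TATAAA from -11 to -6, in capitals, a motif that 24.0% of all protein-coding genes held in a segment of the same length and offset.
NRT2.3 promoter segment: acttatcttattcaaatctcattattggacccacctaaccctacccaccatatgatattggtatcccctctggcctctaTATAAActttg

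Between its TSS and 1 kb upstream, NRT2.3 had 2 more sites in both libraries, with MHSs of 267 and 120 bp in replicate 1 and of 111 and 108 bp in replicate 2 between -979 and -567. The longest of the window in replicate 1, 337 bp, lay behind the gene and overlapped a 138-bp MHS of replicate 2. Both had their midpoint inside the next gene, ABCF1 (AT5G60790). Apart from the first bases under the site at the TSS, no MHS lay in the transcribed region of NRT2.3 in either replicate.

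NRT2.4 encodes a high-affinity transporter known for its activity in nitrogen-starved plants. It lies at chr5:24444365-24447127 with 4 exons. Its window held 6 MHSs in replicate 1 and 4 in replicate 2, which covered 10.9% and 7.69% of it, and the share in both, 4.24%, was the smallest of the 8. The nearest site called in both measured 227 bp in replicate 1, from -1300 to -1074 (chr5:24443065-24443291), and 127 bp in replicate 2, from -1226 to -1100 (chr5:24443139-24443265). Replicate 2 alone had a 94-bp MHS closer to the TSS, from -298 to -205, which was 775 bp from any in replicate 1. A second shared site measured 160 bp in replicate 1, from -1885 to -1726, and 198 bp in replicate 2. MHSs of 70, 92 and 71 bp were called in replicate 1 only, and neither library had an MHS in the transcribed region. The sequence of the nearest shared site, chr5:24443139-24443265 on the plus strand, held none of the motifs searched. It is printed to set it beside those of NRT2.1 and NRT2.2, which lay at a like distance.
NRT2.4 distal segment: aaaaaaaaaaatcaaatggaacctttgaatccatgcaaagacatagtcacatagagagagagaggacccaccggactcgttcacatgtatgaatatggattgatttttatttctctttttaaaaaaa

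Between NRT2.4 and NRT2.3, a 117-bp MHS of replicate 1 and a 102-bp MHS of replicate 2 missed each other by 39 bp. Each fell in the windows of both genes, so the 57 gene and MHS pairs of replicate 1 stood for 56 MHSs and the 45 pairs of replicate 2 for 44. The NRT2 genes resemble each other in sequence, and reads that fit several places can be lost when alignments are filtered on mapping quality. The coding sequences of NRT2.1 and NRT2.2 were 88.1% identical, against 65.3 to 73.2% for the other NRT2 pairs. A stretch of 31 bases that occurs more than once in the genome made up 13.5% of such stretches in the transcribed region of NRT2.1 and 15.9% in that of NRT2.2, but 0% in the 1 kb upstream of each NRT2 gene. In the 3 kb upstream it was 16.3% for NRT2.2 and 13.7% for NRT2.3, and 0% for NRT2.1 and NRT2.4, and within the MHSs of replicate 1 it was 0% at all 8 genes. The part of such repeats in which MHSs were called was not tested.

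Over all 8 genes, the counts can be read against the other genes of the genome. An MHS lay within 1 kb upstream of the TSS in 6 of 8 genes in replicate 1, against 81.8% of the 27444 protein-coding genes, and in 6 of 8 in replicate 2, against 73.6%. The gene added to the 5 with an MHS over the TSS was NRT2.2 in replicate 1 and NRT2.4 in replicate 2. Both replicates had one in 5 of 8, against 71.7%, with no overlap between them required. The TSS itself lay in an MHS of both replicates in 5 of 8, against 46.6%. No MHS of either replicate lay within 500 bp of the TSS in 2 of 8 genes, NRT2.1 and NRT2.2, against 17.8%. A single gene moves such shares strongly among 8, and no test was made.

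**Figure D2:**
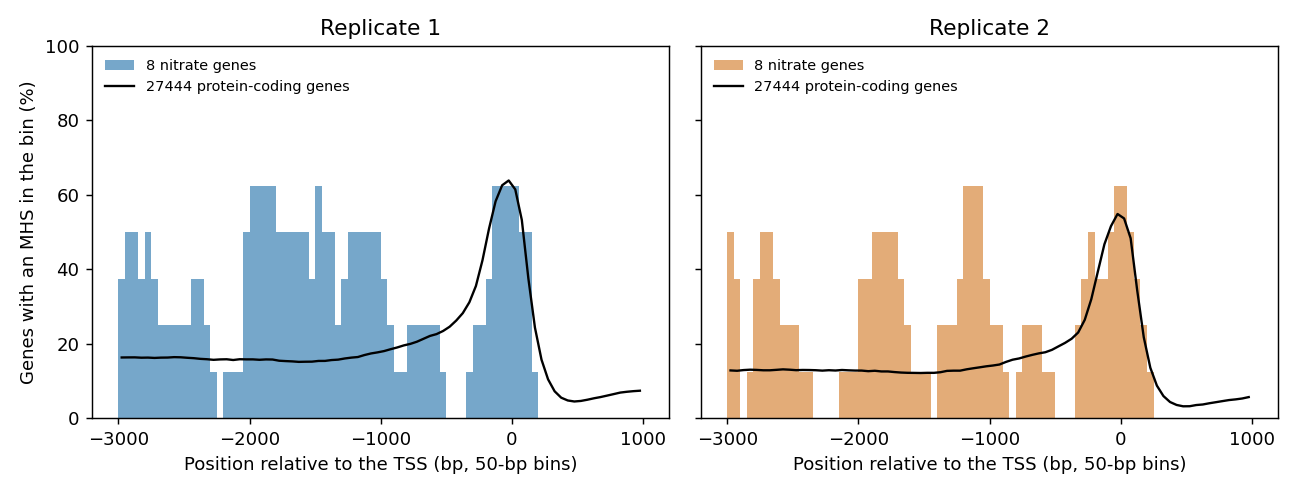
Share of genes with an MHS in each 50-bp bin (percent, vertical axis) by position relative to the TSS (bp, horizontal axis), in replicate 1 and replicate 2. Bars stand for the 8 nitrate genes and the line for 27444 protein-coding genes. At the TSS, 5 of the 8 genes had an MHS in both panels. Beyond 1 kb upstream the bars exceed the line in 35 and 28 of 40 bins, in replicate 2 narrowly where the bar stands for 1 gene.

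At the TSS the 8 genes followed the profile of all genes. In the bin just before the TSS, 5 of 8 genes had an MHS in replicate 1, against 63.9% of all genes, and 5 of 8 in replicate 2, against 54.9%. Beyond 1 kb upstream, the share at the 8 genes was above that of all genes in 35 of 40 bins in replicate 1 and in 28 of 40 in replicate 2. It was 0 in 1 and 6 of the bins. In replicate 2, a bin with 1 of 8 genes counted as above from -1600 to -1550, against 12.2% of all genes. From -2450 to -2400 such a bin counted as below, against 13.0%, so the tally partly turns on single genes. The highest bins of replicate 1, with 5 of 8 genes, lay from -2000 to -1800, against 15.7 to 15.8% of all genes, and from -1500 to -1450, against 15.4%. Replicate 2 had 3 or 4 of 8 in the bins from -2000 to -1800 and 1 of 8 from -1500 to -1450. Its own highest bins, with 5 of 8 genes, lay from -1200 to -1050, against 13.1 to 13.7%, where replicate 1 had 4 of 8. These bins were picked for their height, and bins of a gene share the same MHS. How far upstream the next gene lay was not matched between the 8 genes and all genes, and its part here was not tested.

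Each MHS was also assigned to 1 feature by its midpoint. MHSs more than 1 kb upstream of the TSS made up 25 of 57 (43.9%) at the 8 genes in replicate 1, against 31.4% over all gene windows, and 21 of 45 (46.7%) in replicate 2, against 31.3%. Those within 1 kb upstream made up 8 of 57 (14.0%), against 29.3%, and 8 of 45 (17.8%), against 28.8%. Coding sequence held 4 and 3 of the pairs (7.02% and 6.67%, against 1.67% and 3.38%), all in NIA1, NIA2, NIR1 and NRT1.1. Introns held 6 and 4 (10.5% and 8.89%, against 4.26% and 2.6%), of which NRT1.1 supplied 5 and 3. The 5′ UTR held 2 and 3 (3.51% and 6.67%, against 6.67% and 8.88%), and the 3′ UTR 3 and 1 (5.26% and 2.22%, against 6.03% and 4.89%). The 1 kb behind the gene held 9 and 5 (15.8% and 11.1%, against 19.1% and 18.4%). Neighbouring MHSs of a gene are not independent, and 8 genes do not allow a general statement. Upstream of the 8 genes, no MHS had its midpoint in another annotated gene. The windows of all genes were taken as they fell, also where a neighbouring gene filled them, and an MHS counted for every window it overlapped. The part of this in the differences was not tested.

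The windows differed widely in how much of them was open. The MHSs of both replicates covered a median of 10.5% of the window at the 8 genes, from 4.24% in NRT2.4 to 28.9% in NRT1.1, against a median of 7.43% over all protein-coding genes. The 3 reductase genes lay close together, with 17.0% in NIA1, 13.9% in NIR1 and 13.4% in NIA2, and were above 86.7%, 78.8% and 77.3% of all genes. Among the 8, the NRT2 genes formed the lower end, with 7.52% in NRT2.1, 5.93% in NRT2.3 and 5.66% in NRT2.2 above NRT2.4. They were above 50.5%, 40.6%, 38.9% and 29.2% of all genes. Of the NRT2 genes outside the 8, NRT2.5 (15.9%) and NRT2.7 (10.8%) had more, and NRT2.6 (6.32%) lay within their range. In each replicate taken alone, the 8 genes had medians of 16.7% and 12.7%, against 11.6% and 9.37%. NRT1.1 had the highest coverage in both, but neighbours in this order changed places between the replicates, with NIR1 above NIA1 in replicate 1 and below it in replicate 2.

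**Figure D3:**
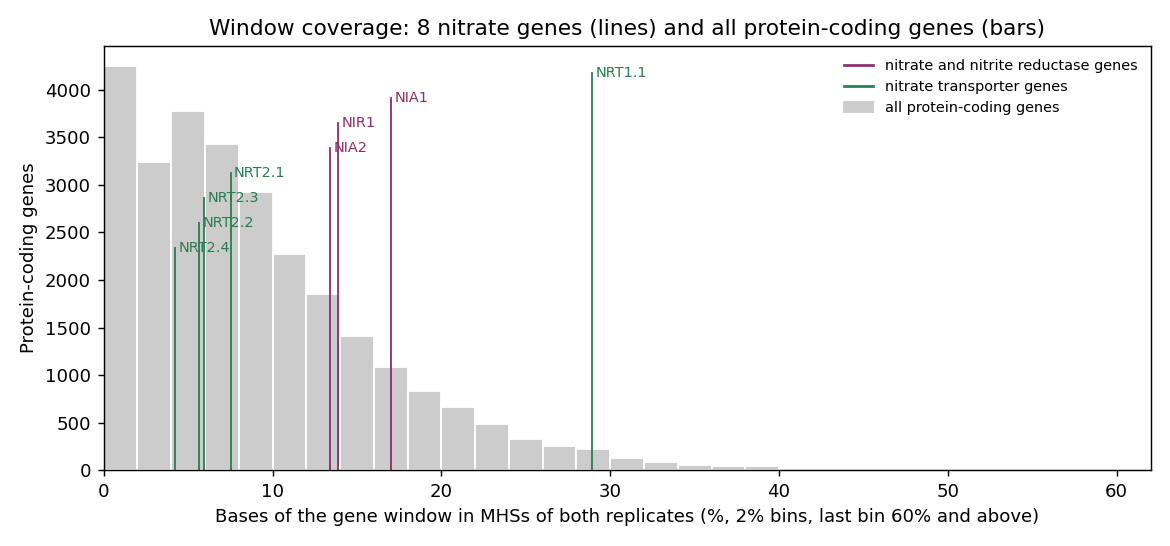
Share of the bases of each gene window that lay in MHSs of both replicates (percent, horizontal axis). Coloured lines mark the 8 nitrate genes, at heights chosen for legibility, and grey bars give the number of protein-coding genes in each 2% bin (vertical axis). NRT1.1 stands at 28.9%, the reductase genes between 13.4% and 17.0%, and the NRT2 genes among the 8 at 7.52% or less.

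The replicates overlapped at these genes about as often as elsewhere. In replicate 1, 37 of 56 MHSs shared at least 1 bp with an MHS of replicate 2 (66.1%, exact 95% interval 52.2 to 78.2%), against 61.9% over the genome. In replicate 2 it was 38 of 44 (86.4%, 72.7 to 94.8%), against 86.9%. The genome shares lay inside both intervals, which cover counting error only. They count MHSs as independent and leave out the spread between genes. By gene, 12 of 13 MHSs of replicate 2 at NRT1.1 and all 7 at NIA1 had a partner, whereas at NRT2.4 2 of 4 had one, and 2 of 6 from replicate 1.

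The overlap was also counted by length. In replicate 1, 20 of the 56 MHSs were at most 100 bp long, and 7 of these overlapped replicate 2 (35.0%, against 26.2% over the genome), compared with 30 of the 36 longer ones (83.3%, against 82.4%). In replicate 2 only 3 of 44 were that short (6.82%, against 13.4%), and 1 of them overlapped, whereas 37 of the 41 longer ones did. The median length was 136 bp in replicate 1, from 59 to 899 bp, against 146 bp over the genome, and 163 bp in replicate 2, from 79 to 537 bp, against 187 bp. Every MHS above 200 bp at the 8 genes, in either library, had a partner in the other. The limit of 200 bp was read from these same lengths, and no share over the genome was computed for it. The A/T content of the replicate 1 MHSs had a median of 68.2% with a partner and 73.7% without one, and that of replicate 2 MHSs 64.9% and 62.5%, and its part in the overlap was not tested.

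**Figure D4:**
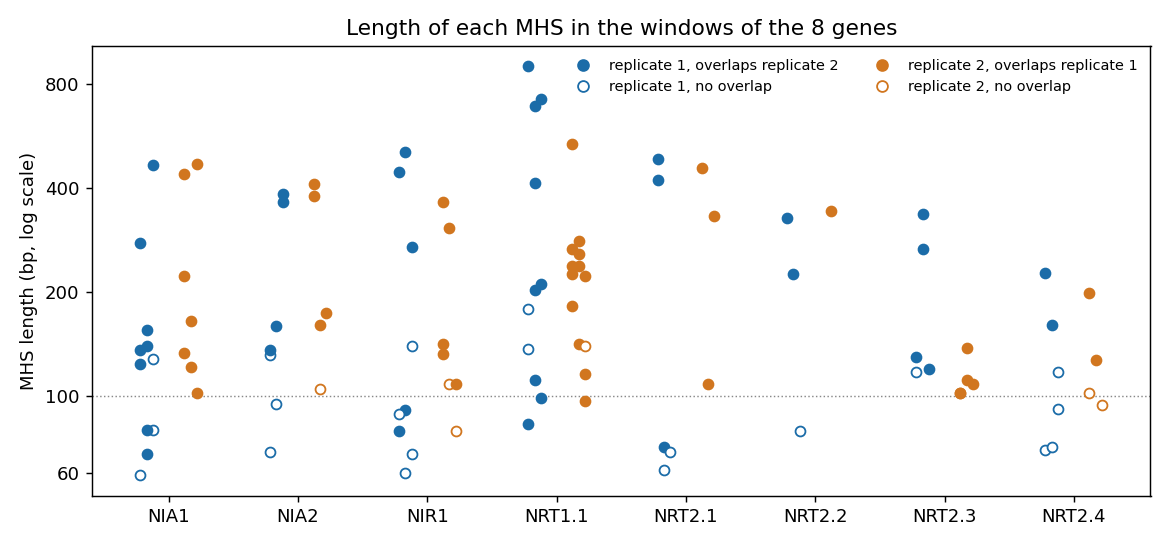
Length of every MHS in the windows of the 8 genes (bp, vertical log axis), by gene. Blue points are replicate 1 and orange points replicate 2, filled where the MHS overlaps the other replicate, the dotted line marks 100 bp, and sideways offsets within a gene only separate points. No open point lies above 200 bp, a limit read from these points, and open and filled points mix below it.

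The motif matches of the 8 windows were set against the share of bases that both replicates covered, 13.2%. Of 13 G-boxes, 5 lay in MHSs of both replicates (38.5%), 2 of them at NIR1 and 3 at NRT1.1. Of 67 as-1 cores 11 did (16.4%), of 123 W-box cores (TTGAC) 21 did (17.1%), of 119 TATA boxes (TATAAA) 13 did (10.9%), and of 491 matches to GATA 75 did (15.3%). The rarer motifs gave 1 of 4 for the evening element, 1 of 4 for the strict NRE and 4 of 18 for the loose NRE, of which 3 were at NIR1. Matches were counted on both strands and can overlap, as the W-box core of NIR1 from 62 to 66 does with its NRE. They are matches of letters and say nothing of binding. The same shares over the windows of all protein-coding genes were not computed, so whether these values are particular to the 8 genes is not known.

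The pattern of MHSs from 3 kb upstream to 1 kb downstream of the TSS was compared between genes over 80 bins of 50 bp, as the mean coverage of both replicates. Among the 8 genes the most alike were NRT2.1 and NRT2.2 (Pearson r = 0.727), followed by NIR1 and NRT1.1 (0.659) and by NIA1 and NIA2 (0.544). The neighbours NRT2.3 and NRT2.4 had r = -0.217. Bins of a gene adjoin each other and come from the same libraries, so these values are descriptions. Over the other protein-coding genes, the most alike gene reached r = 0.93 with AT1G20770 for NIA2 and r = 0.969 with AT5G05070 for NRT2.2, whose few MHSs leave a simple pattern. It was AT3G21310 for NRT2.3 (0.866), AT3G45252 for NRT2.4 (0.826), AT5G19880 for NRT2.1 (0.787) and PPR336 for NRT1.1 (0.787). AT5G45720 was the most alike to NIA1 (0.775) and AT5G18610 to NIR1 (0.774).

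A list of 42 other genes of nitrate transport, ammonium assimilation, cofactor supply and regulation was examined in the same way. Both replicates had an MHS within 1 kb upstream of the TSS, not necessarily at the same site, in 36 of the 42, against 71.7% of all protein-coding genes. The TSS lay in an MHS of both in 26 of the 42, against 46.6%. None of the 42 had a gap of 500 bp on both sides of the TSS in both replicates, against 17.8% of all protein-coding genes. NRT2.1 and NRT2.2 had such a gap. MHSs of both replicates covered a median of 12.4% of their windows. Among the 6 genes of ammonium assimilation, the glutamine synthetase genes GLN1.1, GLN1.2 and GLN2 and the glutamate synthase genes GLU1, GLU2 and GLT1, the TSS lay in an MHS of both replicates in all 6, and 5 of 6 had an upstream MHS in both. Of 8 genes for cofactors and reductant, such as G6PD3 and CNX2, 7 had the TSS in an MHS of both and 8 had an upstream MHS in both. Of 17 regulators, 9 had the TSS in an MHS of both, and 16 had an upstream MHS in both, among them NLP7, a transcription factor of the primary nitrate response. Of the 42 windows, 6 were covered in both replicates to more than the 28.9% of NRT1.1. They were those of HHO3 (38.1%), LBD38 (37.3%), NRT1.2 (31.9%), BT1 (31.9%), LBD37 (30.2%) and NRT1.7 (29.5%).

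Of the 10 other transporters, 10 had an upstream MHS in replicate 1 and 7 in replicate 2, against 81.8% and 73.6% of all protein-coding genes. The TSS lay in an MHS of both in 4 of the 10, against 46.6%. The 3 without an upstream MHS in replicate 2 were NRT2.5, NRT2.6 and NRT2.7, and the partner gene NAR2.1 had none in replicate 2 either, with the nearest MHS 1447 bp from the TSS there and 0 bp in replicate 1. The NRT1 and NRT2 genes were grouped by family after these values were seen. Of the 7 NRT2 genes, 5 had an MHS within 1 kb upstream in replicate 1, 2 in replicate 2 and 1, NRT2.3, in both. The shares of all protein-coding genes were 81.8%, 73.6% and 71.7%. Of the 6 NRT1 genes examined, all 6 had one in each replicate. The TSS lay in an MHS of both in 1 of 7 NRT2 genes and 4 of 6 NRT1 genes, against 46.6% of all protein-coding genes. NRT2.5 differed from NRT2.1 in that replicate 1 had an MHS 97 bp from its TSS, while that of replicate 2 was 910 bp away. NRT2.6 had an MHS over the TSS in replicate 1 and none within 1746 bp in replicate 2, and NRT2.7 had one 17 bp away in replicate 1 and 1296 bp away in replicate 2. The family split was not tested, and for NRT2 it rests mostly on MHSs that replicate 2 did not have. The paper reports a higher background for that library, and the part of this in the split was not tested.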

How the data were processed

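MH-seq data of 2 libraries from 1 group of seedlings were used. The deposited lists give positions only, the start and end of each MHS on TAIR10, with no score or read count, so the depth behind an MHS is unknown and no test between conditions was possible. Per the methods of the authors, Cutadapt was used for trimming and Bowtie 2 for alignment. They kept full-length alignments above a mapping quality limit and called MHSs with Jazz in each library. The versions of these tools and the cut-off of the MHS calls are not given in the sources used here. The library whose title has no number is called replicate 1. For its second dataset the paper reports more reads from the chloroplast genome and a higher background than for the first. The part of this in MHSs called in replicate 1 only was not tested.

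Positions were read as 0-based and printed 1-based. Genes and sequences came from RefSeq, TAIR10.1. An MHS belonged to a gene if it overlapped the window of 3 kb upstream of the TSS to 1 kb past the TTS, and to a feature by its midpoint. The rule for named genes was to describe all 8 members and, for each, the nearest upstream MHS, the longest MHS and every MHS in the transcribed region, with the 1 most alike gene. The members are named by gene, with no measured value in the rule, but they, the other lists and the motifs were set down with earlier results of these data known. Intervals are exact (Clopper-Pearson) at 95%. Python 3.11.15, numpy 2.4.6, scipy 1.17.1, Biopython 1.88 and matplotlib 3.10.9 were used, and the functions were tested on simulated data (20 of 20 tests passed). Alternatives joined MHSs with gaps of up to 50 bp, required a length of 100 bp, and changed the window, the overlap required and the replicates used. The labelled tissue could not be checked against expression markers.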

Additional observations from a re-analysis of the deposited data

How the results depend on the processing

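Of 42 alternative values, 11 were counted as moved and 31 were not. The 31 still take in sizeable shifts. With at least 50% of an MHS required to be covered, 53.6% of replicate 1 MHSs had a partner in place of 66.1%. Merging MHSs at most 50 bp apart left 45 in replicate 1 in place of 56. With MHSs of at least 100 bp only, replicate 1 had 36 MHSs at the 8 genes in place of 56, and 83.3% of them overlapped replicate 2 in place of 66.1%. With 1 kb upstream in place of 3 kb, replicate 1 had 33 MHSs and replicate 2 had 24 in place of 44, and 27.3% of those of replicate 1 lay upstream of the TSS in place of 57.9%. A reciprocal overlap of at least 50% left a partner to 39.3% of MHSs in replicate 1 and to 50% in replicate 2. Merging MHSs at most 50 bp apart gave a median length of 210 bp in replicate 1 in place of 136 bp. All 8 genes had an MHS of both replicates within 3 kb upstream, and 5 within 1 kb. Fewer MHSs or pairs follow from the construction of these settings, and otherwise the cause was not tested. Leaving out a replicate, so that the other alone gave the value, gave a coverage of the windows of 16.0 to 21.0% in place of the 13.2% in both, 6 genes with an MHS within 1 kb upstream, 44 MHSs with a median length of 163 bp, and 64.4% of MHSs upstream of the TSS. No paired analysis was possible because the libraries form a single group. Without read counts, an MHS missing from a list cannot be told from one below the calling limit.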
